A study of Mus musculus with 8 samples.

Results

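The genes described here are 10 components of fibroblast growth factor (FGF) signalling, measured in whole mouse hearts with and without the histone acetyltransferase gene Kat6a, also called Moz. They were chosen by symbol and comprise 4 secreted ligands (Fgf8, Fgf9, Fgf10 and Fgf16), 2 receptors (Fgfr1 and Fgfr2) and 4 inhibitors that the pathway induces against itself (Spry1, Spry2, Spry4 and Dusp6). All 10 were found by Entrez ID among the 27179 genes of the count table, and 9 of them passed the count filter, which kept 15086 genes. The exception was Fgf16. E10.5 hearts (mid-gestation) were sequenced as 5 wild-type samples (MOZ WT, Kat6a+/+) and 3 samples that lacked both Kat6a alleles (MOZ KO, Kat6a-/-). Each sample is called a heart here; the labels do not say whether any pooled several, and the sources used here give neither strain, litter and sex nor the part of Kat6a that the allele removes.

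FGF ligands bind receptor tyrosine kinases together with heparan sulphate, and the activated receptor signals through the adaptor Frs2, Ras and the ERK kinases. ERK activity switches on the ETS factors Etv4 and Etv5 and a set of inhibitors that includes the Sprouty proteins and the ERK phosphatase Dusp6, so transcripts of these targets are often read as a gauge of the signal. In the embryonic heart, Fgf8 and Fgf10 are known from the second heart field, the pharyngeal progenitors that lengthen the outflow tract and right ventricle, while Fgf9 and Fgf16 are known as signals of the epicardium and endocardium to the myocardium.

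The hearts held 19911803 to 34539787 counts each, and the 8 cardiomyocyte markers summed to 31743 to 37184 CPM (CPM is a gene's count scaled to the size of its library) in every heart, so the labelled tissue matched its defining genes. The count of Kat6a itself lay between 138 and 156 CPM in MOZ WT and between 133 and 141 CPM in MOZ KO, and a count over the whole gene cannot check the genotype labels. RNA of Xist, a mark of female cells, was present in 2 hearts, MOZ WT replicates 4 and 5, and not above 10 CPM in the other 6. Epicardial markers fell (6 of 8 past the threshold, summed level 441 to 506 CPM in MOZ WT and 311 to 359 CPM in MOZ KO), and macrophage markers rose (5 of 8, 12.6 to 26.6 CPM against 35.7 to 43.7 CPM). Over all genes tested, 2.67% passed that threshold, an adjusted p under 0.05, and 2148 of 15086 had an unadjusted p under 0.05. Markers of liver summed to 0.766 to 2.02 CPM in MOZ WT and to 3.08, 1.63 and 15.8 CPM in MOZ KO replicates 1 to 3. Of 10 genes that respond to tissue handling, 0 passed in edgeR, DESeq2 or limma (0 at an unadjusted p under 0.05). Their log2 fold changes were above 0 for 8 of 10 (median 0.37), and their summed level stood at 464.6 CPM in MOZ KO replicate 1 and at 258.5 to 306.8 CPM in the other 7 hearts. Of 8 cushion mesenchyme markers 2 fell (836 to 1027 CPM in MOZ WT, 823 to 874 CPM in MOZ KO), and of 8 endocardial and endothelial markers 2 rose and 1 fell (1133 to 1290 CPM against 1161 to 1230 CPM). In whole hearts, fewer cells of a type and less RNA in each cell cannot be told apart. Nothing in the labels says that the hearts came from separate embryos or litters, so p-values here reflect only how far these 8 hearts vary.

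Of the 9 genes tested, 1 rose and 1 fell in MOZ KO. Fgf10 was higher in MOZ KO, and Spry4, an inhibitor of the pathway, was lower. A gene counted as changed at an adjusted p under 0.05 (edgeR quasi-likelihood test, Benjamini-Hochberg over all genes tested), and 2.67% of all genes tested met that rule, 1.44% higher and 1.23% lower. Fgf10 and Spry4 were also the 2 of the 9 whose MOZ KO values lay entirely outside the MOZ WT range, a property of 9.59% of all genes tested. The median log2 fold change (MOZ KO over MOZ WT) was 0.06 over these 9 genes and -0.0001 over all genes tested. By role, the 3 ligands tested all had a log2 fold change above 0, and the receptors had values of 0.06 and 0.03. Of the 4 feedback targets 3 were below 0, Spry4 at -0.39, Spry1 at -0.07 and Dusp6 at -0.03. Over all 15086 genes tested, 7533 were above 0 and 7548 below 0. The values of Fgf8, Fgfr2, Spry1 and Dusp6 could turn sign on leaving out 1 heart.

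**Figure D1:**
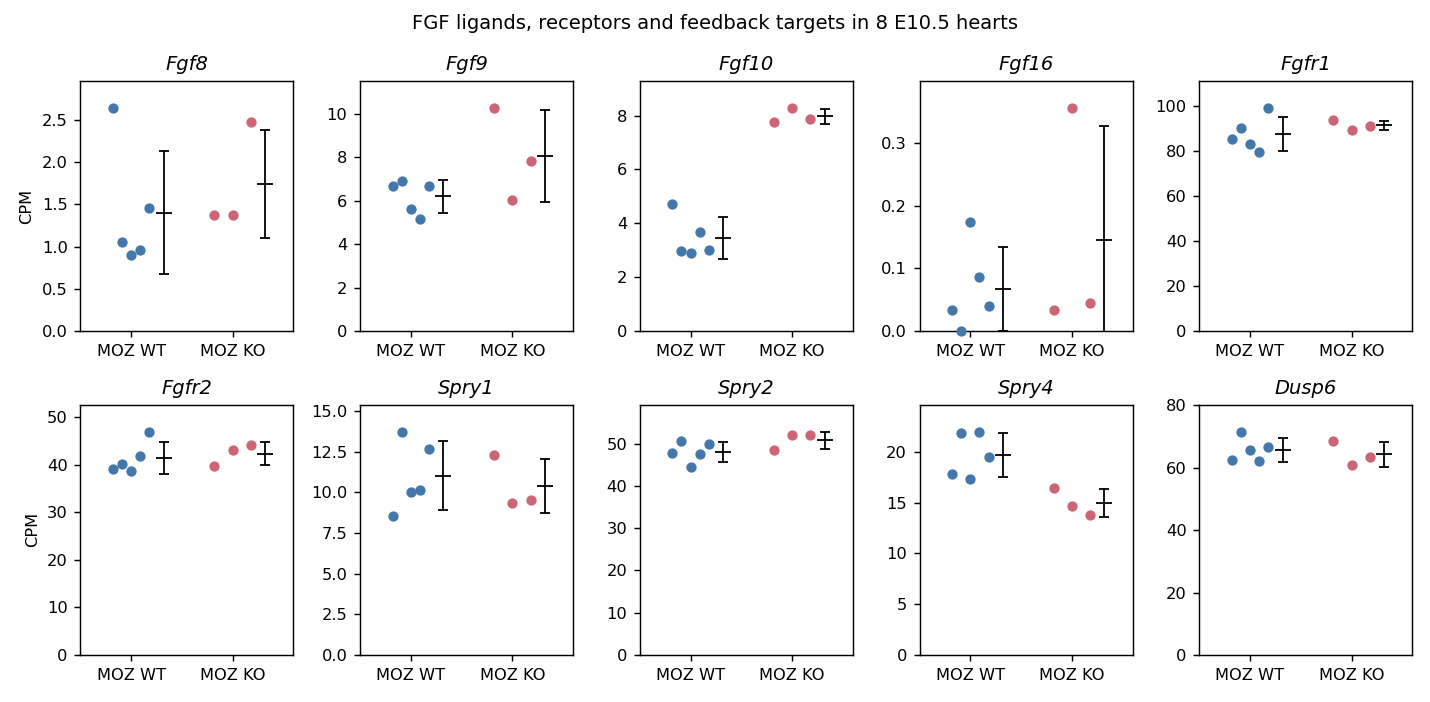
CPM (vertical axes, each from 0) of the 10 genes in each heart, with MOZ WT in blue (n = 5) and MOZ KO in red (n = 3); black bars are the mean and SD. The 3 MOZ KO hearts sit above all MOZ WT hearts for Fgf10 and below all of them for Spry4, and the groups overlap in the other 8 panels.

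The promoters of 3 members are shown: the ligand that changed, and Spry2 and Dusp6, the 2 members whose windows held the motif marked below. Spry1, a further feedback target that did not pass the test, had a window without it. The contrast in motif between the printed windows thus follows from how they were chosen. Each line gives the 250 bases upstream of the annotated start, 5′ to 3′ on the gene's strand, from RefSeq (GRCm38.p6), at chr13:118714449-118714698 (plus strand) for Fgf10, chr14:105896820-105897069 (minus strand) for Spry2 and chr10:99262981-99263230 (plus strand) for Dusp6. Capitals mark matches to the octamers bound by Capicua, a repressor of FGF target genes that ERK signalling inactivates.
Fgf10: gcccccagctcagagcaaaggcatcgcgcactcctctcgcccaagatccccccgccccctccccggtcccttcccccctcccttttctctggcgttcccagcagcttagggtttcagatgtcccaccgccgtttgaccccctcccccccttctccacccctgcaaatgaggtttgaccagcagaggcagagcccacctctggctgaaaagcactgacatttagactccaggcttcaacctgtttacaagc
Spry2: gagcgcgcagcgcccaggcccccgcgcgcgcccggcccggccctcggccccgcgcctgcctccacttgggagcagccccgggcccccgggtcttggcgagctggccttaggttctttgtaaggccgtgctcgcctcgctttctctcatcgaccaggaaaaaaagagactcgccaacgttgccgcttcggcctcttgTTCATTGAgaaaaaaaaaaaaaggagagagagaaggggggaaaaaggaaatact
Dusp6: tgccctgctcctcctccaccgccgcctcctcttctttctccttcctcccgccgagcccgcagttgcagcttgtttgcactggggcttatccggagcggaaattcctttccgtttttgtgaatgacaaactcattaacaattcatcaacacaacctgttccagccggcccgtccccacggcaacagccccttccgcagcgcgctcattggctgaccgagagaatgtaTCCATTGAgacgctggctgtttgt

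The search used the octamers TGAATGAA or TGAATGGA or TCAATGAA or TCAATGGA on both strands, and 6 of the 10 genes had an entry in the promoter table (Fgf9, Fgf10, Fgfr2, Spry1, Spry2 and Dusp6). The Spry2 window held TTCATTGA, which begins 54 bases upstream of the start, and the Dusp6 window held TCCATTGA, which begins 24 bases upstream; both are minus-strand readings of an octamer. These letters were not in the other 4 windows. Over all 32851 windows in the table, 3.19% held at least 1 such octamer. The ETS motif CCGGAAG was in 0 of the 6 windows and in 6.91% of all windows. A match is a description of the sequence and says nothing about binding in these hearts.

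Fgf10 was the ligand that changed. Its product drives the outgrowth of many organs by signalling from mesenchyme, mainly through the IIIb form of Fgfr2, and in the heart it is a gene of the second heart field. Fgf10 (Entrez gene 14165; chromosome 13, 118714699 to 118792573, GRCm38.p6) stood at 4.74, 2.97, 2.90, 3.70 and 3.03 CPM in MOZ WT replicates 1 to 5, and at 7.76, 8.29 and 7.87 CPM in MOZ KO replicates 1 to 3. The MOZ KO hearts were close to each other, and the lowest of them lay well above MOZ WT replicate 1, the highest wild-type heart. The means were 3.47 ± 0.779 CPM (SD, n = 5) and 7.97 ± 0.276 CPM (SD, n = 3), and the log2 fold change was 1.20 ± 0.17 (SE), a 2.29-fold rise with a 95% interval of 1.80 to 2.93 (edgeR adjusted p = 0.000293). The values rest on 62 to 140 reads per heart in MOZ WT and 163 to 232 in MOZ KO. The call held in all 18 alternatives, with a log2 fold change of 1.13 to 1.34 and an adjusted p of at most 0.0111 (edgeR, DESeq2 or limma). It shares 123 exon bases with Gm16263, an antisense gene in GENCODE. Since the sources used here do not say whether counting used strand, some of its reads could belong to that gene.

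Markers of the tissues known to make Fgf10 were read in the same hearts, and the part of these tissues in the Fgf10 result was not tested. Of 7 tested markers of the second heart field and pharyngeal mesoderm, 0 rose and 2 fell, Nkx2-6 by 3.63 ± 0.42 and Tlx1 by 1.72 ± 0.43 (SE) on the log2 scale, while DESeq2 called 2 and limma 1 of them lower, and both called 0 higher. Their summed level was 23.7 to 36.4 CPM in MOZ WT and 19.2 to 21.6 CPM in MOZ KO. Isl1, the homeobox gene that defines second heart field progenitors, stood at 6.70 ± 3.07 CPM in MOZ WT and 6.64 ± 1.62 CPM in MOZ KO. Of 7 tested markers of lung bud and foregut mesenchyme, tissues that also make Fgf10, 0 passed in edgeR, DESeq2 or limma (1 at an unadjusted p under 0.05), and their sum was 60.2 to 108.6 CPM in MOZ WT and 58.3 to 84.1 CPM in MOZ KO. The rise of macrophage markers in the same hearts is given above, and its part in the Fgf10 result was not tested.

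Fgf9, a ligand of the IIIc receptor forms, did not pass. Fgf9 (chromosome 14, 58070671 to 58112854) stood at 6.67, 6.89, 5.60, 5.18 and 6.67 CPM in MOZ WT and at 10.3, 6.05 and 7.83 CPM in MOZ KO. MOZ KO replicates 1 and 3 exceeded every MOZ WT heart, while MOZ KO replicate 2 lay inside the MOZ WT range. The log2 fold change was 0.39 ± 0.16 (SE) with a 95% interval of 0.05 to 0.72 (unadjusted p = 0.0252, edgeR adjusted p = 0.259), so a rise of up to 1.65-fold lies within the interval. The value was 0.17 without MOZ KO replicate 1 (edgeR adjusted p = 0.825) and 0.55 without MOZ KO replicate 2 (0.102).

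Fgf8, needed in the pharyngeal region for the outflow tract to form, varied most within the wild-type group among the 9 members tested. Fgf8 (chromosome 19, 45736491 to 45742941) stood at 2.64, 1.05, 0.899, 0.957 and 1.45 CPM in MOZ WT and at 1.37, 1.37 and 2.47 CPM in MOZ KO. The highest value was that of MOZ WT replicate 1, which was also the highest MOZ WT heart for Fgf10, and the groups overlapped. The coefficient of variation over MOZ WT was 51.8% for Fgf8, against 22.5% for Fgf10 and 12.3% for Fgf9. With 22 to 78 reads per heart, its log2 fold change of 0.30 ± 0.36 (SE) had a 95% interval of -0.45 to 1.04 (edgeR adjusted p = 0.786), and its upper end is a 2.06-fold rise.

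Fgf16, a close relative of Fgf9, was barely detected. It had 1, 0, 6, 2 and 1 reads in MOZ WT replicates 1 to 5 and 1, 7 and 1 reads in MOZ KO replicates 1 to 3. The highest count of each group came from a single heart, and the gene was under the count filter, so no test was made.

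The receptors did not pass. Fgfr1, the main receptor of early mesoderm, and Fgfr2 are tyrosine kinases whose IIIb and IIIc forms, made by alternative splicing, bind different ligands; a count per gene does not separate the forms. Fgfr1 (chromosome 8, 25518759 to 25575718) stood at 85.7, 90.2, 83.3, 79.7 and 99.4 CPM in MOZ WT and at 93.9, 89.6 and 91.1 CPM in MOZ KO. All 3 MOZ KO hearts lay inside the MOZ WT range, and the 95% interval of the fold change was 0.957 to 1.14 (edgeR adjusted p = 0.709). Fgfr1 shares 164 exon bases with an antisense gene, Gm16159. Fgfr2 (chromosome 7, 130162451 to 130266808) stood at 39.2, 40.2, 38.8, 42.0 and 47.0 CPM in MOZ WT and at 39.7, 43.1 and 44.3 CPM in MOZ KO. The MOZ KO hearts again lay inside the MOZ WT range, with a 95% interval of 0.922 to 1.13 for the fold change (edgeR adjusted p = 0.905). In the GENCODE gene models, Fgfr2 shares 314 exon bases with the tested gene Ctbp2. The counts are per Entrez gene, and whether the counted model of Fgfr2 holds these bases was not checked.

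Among the feedback targets, Spry4 fell and the others did not pass. Sprouty proteins hold back signalling from the receptor to Ras and ERK. Spry4 (chromosome 18, 38586247 to 38601347) stood at 17.8, 21.9, 17.4, 22.01 and 19.5 CPM in MOZ WT and at 16.5, 14.7 and 13.8 CPM in MOZ KO. The groups did not overlap, though MOZ KO replicate 1 came near MOZ WT replicate 3. The log2 fold change was -0.39 ± 0.10 (SE), a fold of 0.764 with a 95% interval of 0.659 to 0.886 (edgeR adjusted p = 0.0463). This call was close to the threshold and was lost on leaving out any 1 of MOZ WT replicates 2, 4 and 5 or MOZ KO replicates 1, 2 and 3 (edgeR adjusted p of 0.0668 to 0.191). It was also lost in 5 of the other 10 alternatives, among them the fit without the 2 hearts with Xist RNA (edgeR adjusted p = 0.181). The log2 fold change stayed between -0.47 and -0.33 in all 18. These 5 losses are not all separate. The replicate block takes no information from MOZ WT replicates 4 and 5, the hearts with Xist RNA, whose numbers no MOZ KO heart shares. Its log2 fold change was -0.335, as without those hearts, and it was -0.332 with the Xist covariate.

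Spry1 and Spry2 encode further Sprouty proteins, and Dusp6 encodes a phosphatase that removes the activating phosphates from ERK. Spry1 (chromosome 3, 37639947 to 37644599) stood at 8.53, 13.7, 10.01, 10.1 and 12.6 CPM in MOZ WT and at 12.3, 9.35 and 9.54 CPM in MOZ KO, all within the MOZ WT range. Its log2 fold change was -0.07 ± 0.15 (SE; edgeR adjusted p = 0.898), and it shares 710 exon bases with Gm42922, a provisional gene on the opposite strand. Spry2 (chromosome 14, 105891947 to 105896819) stood at 47.8, 50.7, 44.5, 47.5 and 49.9 CPM in MOZ WT and at 48.5, 52.0 and 52.1 CPM in MOZ KO. MOZ KO replicates 2 and 3 of Spry2 were above every MOZ WT heart by a small margin, and the 95% interval of the fold change was 0.969 to 1.15 (edgeR adjusted p = 0.609). Dusp6 (chromosome 10, 99263231 to 99267489) stood at 62.4, 71.6, 65.6, 62.1 and 66.8 CPM in MOZ WT and at 68.7, 60.8 and 63.5 CPM in MOZ KO. The groups overlapped, and the 95% interval of the fold change was 0.899 to 1.07 (edgeR adjusted p = 0.901). Spry2 and Dusp6 were the most even of the feedback targets, with coefficients of variation of 5.04% and 5.91% over MOZ WT. They were also the feedback targets with the most reads.

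The ligands and the feedback targets were also read heart by heart. Against the MOZ WT mean, the log2 level of Fgf10 was higher by 1.17, 1.26 and 1.19 in MOZ KO replicates 1 to 3. The mean over the 3 ligands tested was higher by 0.66, 0.44 and 0.81 in the same hearts, and ranged from -0.28 to 0.52 in MOZ WT. The mean over the 4 feedback targets stood at 0.002, -0.16 and -0.15 in MOZ KO replicates 1 to 3, and ranged from -0.14 to 0.17 in MOZ WT. Thus 2 of the 3 MOZ KO hearts lay above every MOZ WT heart in the ligand mean, and 2 lay just below every MOZ WT heart in the target mean. MOZ WT replicate 1 had the highest ligand mean of the wild-type hearts and the lowest target mean. A single gene weighs heavily in each mean: the MOZ KO average was 1.21 for Fgf10 beside 0.36 for Fgf8 and 0.35 for Fgf9, and -0.39 for Spry4 beside -0.07 for Spry1, 0.08 for Spry2 and -0.03 for Dusp6. These means describe the hearts and carry no test.

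**Figure D2:**
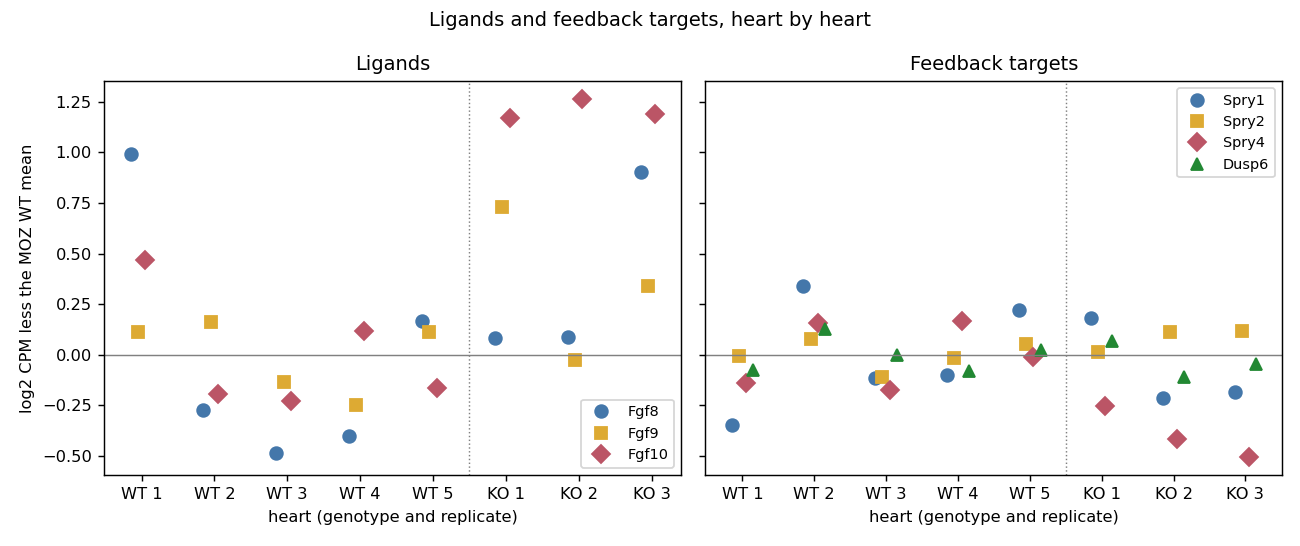
Log2 CPM of the 3 tested ligands (left) and 4 feedback targets (right) in each heart, less the mean of the MOZ WT hearts (vertical axis); the dotted line separates MOZ WT from MOZ KO. Fgf10 lies at 1.17 to 1.26 in the MOZ KO hearts and at no more than 0.47 in MOZ WT, while the feedback targets of MOZ KO hearts lie between -0.50 and 0.18.

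Per length of the gene, Dusp6, Spry2 and Fgfr1 were the most abundant of the 10 genes and the ligands the least. In MOZ WT the level in RPKM (CPM per kilobase of gene, from the gene lengths in the count table) was 23.5 ± 1.39 for Dusp6, 23.04 ± 1.16 for Spry2 and 17.5 ± 1.52 for Fgfr1. Fgfr2 followed at 7.75 ± 0.627 RPKM, then Spry1 at 4.42 ± 0.854 and Spry4 at 4.30 ± 0.476. The ligands stood at 1.498 ± 0.184 RPKM for Fgf9, 1.06 ± 0.550 for Fgf8, 0.758 ± 0.170 for Fgf10 and 0.0221 ± 0.0222 for Fgf16 (SD, n = 5). Neighbours in this order whose ranges over the hearts overlapped were Dusp6 and Spry2, Spry1 and Spry4, Fgf9 and Fgf8, and Fgf8 and Fgf10. In MOZ KO, Fgf10 stood at 1.74 ± 0.0603 RPKM (SD, n = 3), above the mean of Fgf8 (1.32 ± 0.482) and with a range that overlapped those of Fgf8 and Fgf9 (1.94 ± 0.512). Spry4 stood at 3.27 ± 0.294 RPKM there and no longer overlapped Spry1 (4.18 ± 0.666).

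The other genes of the pathway, with 12 transcription factors that act on Fgf8 or Fgf10 or in the same progenitors, were read from lists of 85 genes. Of these 72 passed the count filter, 2 rose and 6 fell. That is 11.1% of those tested, beside 2.67% of all genes tested, and their median log2 fold change was -0.05. With DESeq2 2 rose and 7 fell, and with limma 2 rose and 4 fell. Without the transcription factors, 61 genes were tested in edgeR, of which 2 rose and 4 fell, or 9.84%.

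Of 12 further feedback inhibitors and FGF target genes tested, 2 fell and 1 rose, and 9 had a log2 fold change below 0 (median -0.11). The share called was 25.0%, beside 2.67% of all genes tested, and 7548 of all 15086 genes tested were below 0. Il17rd, also called Sef, encodes a membrane protein that restrains FGF signalling. It stood at 21.7, 22.02, 17.98, 17.7 and 19.9 CPM in MOZ WT and at 14.0, 14.99 and 13.0 CPM in MOZ KO. Every MOZ KO heart was below every MOZ WT heart, and Il17rd fell by 0.50 ± 0.10 (SE) on the log2 scale (edgeR adjusted p = 0.00630). It kept an adjusted p of at most 0.0442 in all 18 alternatives (edgeR, DESeq2 or limma).

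Dusp4, a nuclear phosphatase of ERK and related kinases, stood at 65.1, 59.9, 56.4, 55.4 and 55.5 CPM in MOZ WT and at 42.1, 52.3 and 40.7 CPM in MOZ KO. The groups did not overlap, and MOZ KO replicate 2 was the nearest to MOZ WT. Dusp4 fell by 0.38 ± 0.08 (SE) on the log2 scale (edgeR adjusted p = 0.0107), a call lost without MOZ KO replicate 1 (edgeR adjusted p = 0.107) or MOZ KO replicate 3 (0.0756). Etv1, an ETS factor that FGF signalling can induce, went the other way. It stood at 14.4, 14.9, 13.7, 15.7 and 15.6 CPM in MOZ WT and at 19.6, 18.7 and 19.3 CPM in MOZ KO, with no overlap. Etv1 rose by 0.37 ± 0.09 (SE; edgeR adjusted p = 0.0219), and lost its call without MOZ WT replicate 3 or any 1 of the MOZ KO hearts (edgeR adjusted p of 0.0580 to 0.124).

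Its relatives Etv4 and Etv5, the ETS factors most often used as markers of FGF signalling, did not pass. Etv4 stood at 15.2 ± 1.62 CPM in MOZ WT and 13.02 ± 0.756 CPM in MOZ KO, with a log2 fold change of -0.23 ± 0.11 (SE; edgeR adjusted p = 0.331). Etv5 stood at 50.3 ± 5.74 and 43.9 ± 4.34 CPM, with a log2 fold change of -0.20 ± 0.09 (SE; edgeR adjusted p = 0.328). For both, the 95% interval of the log2 fold change ended just below 0, at -0.01. Epicardial markers fell in the same hearts as Spry4, Il17rd and Dusp4, from a summed level of 441 to 506 CPM to 311 to 359 CPM. Of 8 cushion markers 2 fell, Msx1 and Twist1. Of 8 endocardial and endothelial markers 1 fell, Npr3, and 2 rose. The sums of this last list overlapped, at 1133 to 1290 CPM in MOZ WT and 1161 to 1230 CPM in MOZ KO. The part of these cell types in the results was not tested.

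**Figure D3:**
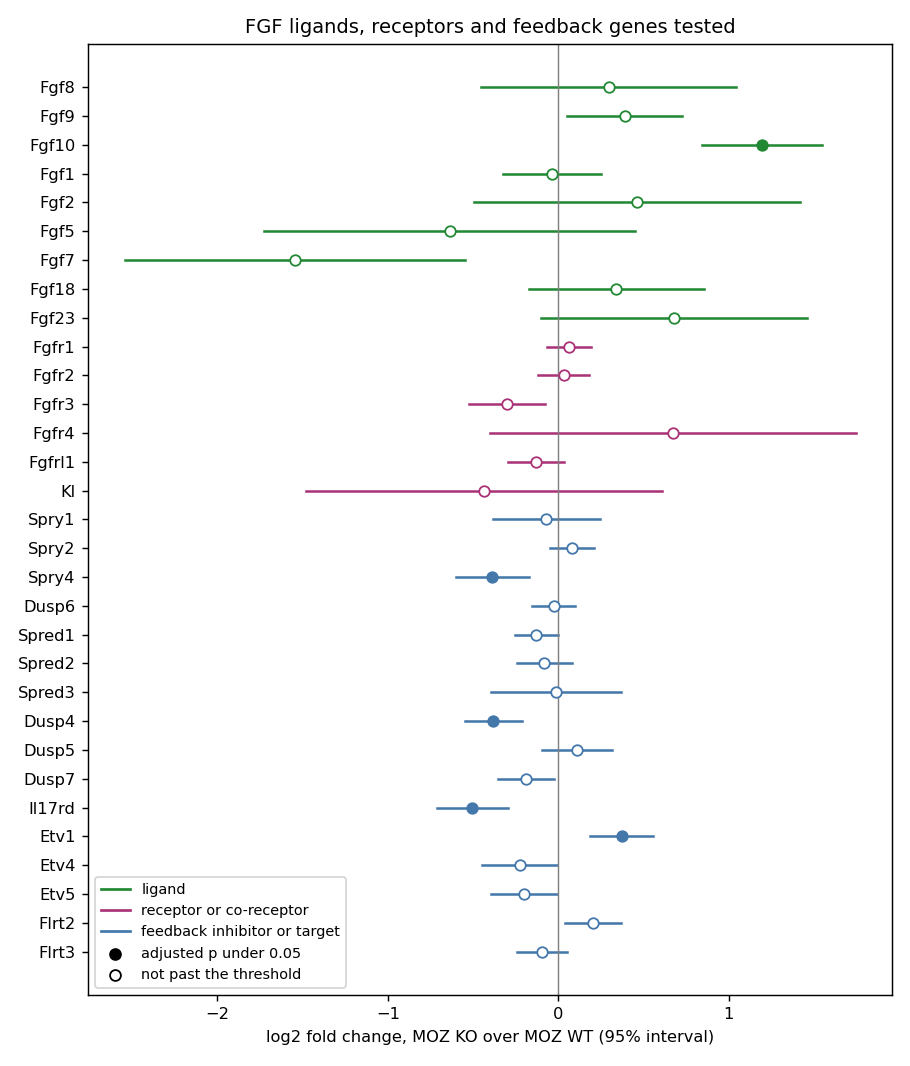
Log2 fold change of MOZ KO over MOZ WT (horizontal axis) with its 95% interval for every tested FGF ligand (green), receptor or co-receptor (purple) and feedback inhibitor or target (blue); filled points passed an adjusted p of 0.05. Fgf10 and Etv1 are the filled points to the right of 0, and Spry4, Dusp4 and Il17rd those to the left.

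Among the other secreted ligands 6 of 14 were tested and 0 passed in edgeR, DESeq2 or limma (1 at an unadjusted p under 0.05). That gene was Fgf7, the ligand closest to Fgf10 in sequence and in its use of the IIIb form of Fgfr2. Fgf7 had 31, 13, 18, 31 and 21 reads in MOZ WT and 8, 9 and 4 reads in MOZ KO, or 0.878 ± 0.333 CPM against 0.302 ± 0.142 CPM. The groups did not overlap in CPM, in the direction opposite to Fgf10. Its log2 fold change of -1.55 ± 0.48 (SE) had a wide 95% interval, -2.54 to -0.55 (edgeR adjusted p = 0.102). Fgf23, a hormone of phosphate balance, had a log2 fold change of 0.68 ± 0.37 (SE; edgeR adjusted p = 0.436) from 9 to 35 reads per heart.

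Of the 4 intracellular FGF homologous factors, which regulate ion channels and do not act as secreted ligands, 3 were tested and 0 passed in edgeR, DESeq2 or limma (0 at an unadjusted p under 0.05). Fgf13, the most abundant of them in CPM, stood at 40.4 ± 2.13 CPM in MOZ WT and 44.4 ± 4.36 CPM in MOZ KO, and Fgf11 at 1.71 ± 0.359 and 2.32 ± 0.639 CPM. Of 4 further receptors and co-receptors tested, 0 passed in the same 3 tools (1 at an unadjusted p under 0.05). Fgfr3 stood at 14.1 ± 0.923 CPM in MOZ WT and 11.5 ± 1.42 CPM in MOZ KO (log2 fold change -0.30 ± 0.11, SE; edgeR adjusted p = 0.173). Fgfrl1, a receptor without a kinase domain, had a log2 fold change of -0.13 ± 0.08 (SE; edgeR adjusted p = 0.499).

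In the relay from receptor to ERK no gene passed. Of its 18 genes, all tested, 0 passed in edgeR, DESeq2 or limma (2 at an unadjusted p under 0.05), and 11 had a log2 fold change below 0 (median -0.03). The adaptor Shc1 had the smallest p (log2 fold change -0.14 ± 0.05, SE; edgeR adjusted p = 0.184). The summed level of the 18 genes was 2214 to 2263 CPM in MOZ WT and 2190 to 2197 CPM in MOZ KO, a small step with no overlap between the groups.

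Of 18 tested genes for the synthesis, trimming and carriage of heparan sulphate and for FGF-binding proteins, 1 rose and 2 fell. The share called was 16.7%, beside 2.67% of all genes tested. Gpc4, a glypican (a heparan sulphate proteoglycan anchored in the outer membrane), stood at 75.7, 73.5, 80.0, 72.5 and 77.7 CPM in MOZ WT and at 105, 105 and 98.7 CPM in MOZ KO. The groups were far apart relative to their spread, and Gpc4 rose by 0.44 ± 0.05 (SE) on the log2 scale, or 1.35-fold (edgeR adjusted p = 4.452e-05). Its adjusted p was at most 0.00570 in the 18 alternatives (edgeR, DESeq2 or limma).

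Gpc3, its more abundant neighbour on the X chromosome, stood at 525, 632, 535, 508 and 540 CPM in MOZ WT and at 481, 465 and 461 CPM in MOZ KO. Gpc3 fell by 0.22 ± 0.06 (SE; edgeR adjusted p = 0.0480), a call lost on leaving out any 1 of MOZ WT replicates 3 and 5 or MOZ KO replicates 1, 2 and 3 (edgeR adjusted p up to 0.159) and in limma (0.0645). Both glypican genes are X-linked, and both kept their calls without the 2 hearts with Xist RNA. Sdc1, the syndecan of epithelia, stood at 51.6, 53.9, 52.1, 49.1 and 47.1 CPM in MOZ WT and at 40.2, 41.5 and 43.3 CPM in MOZ KO. Sdc1 fell by 0.28 ± 0.06 (SE; edgeR adjusted p = 0.0124), and its call was lost without MOZ KO replicate 1 (edgeR adjusted p = 0.0936).

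**Figure D4:**
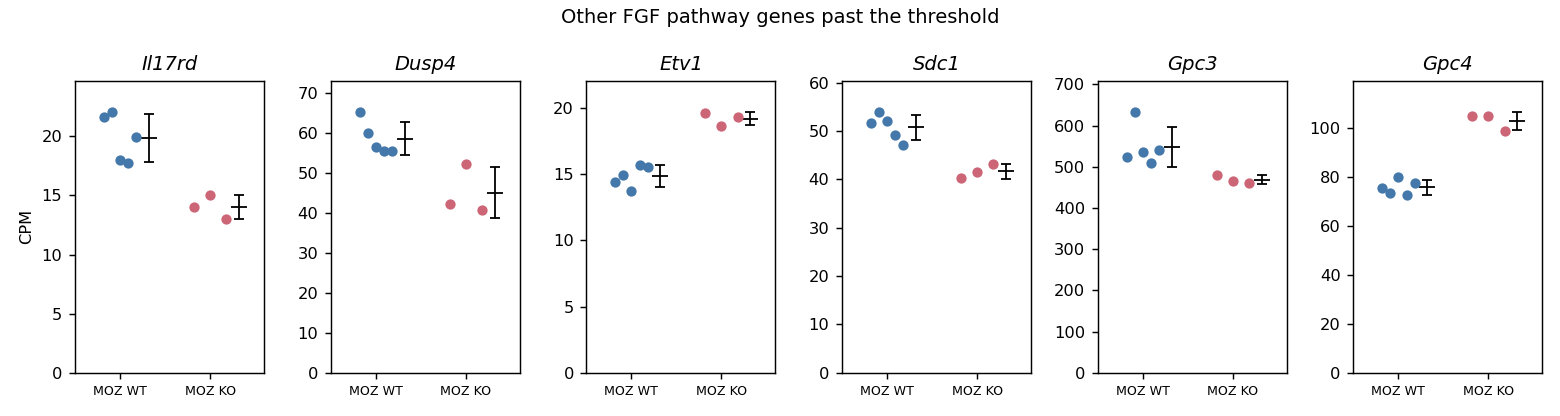
CPM (vertical axes, each from 0) of the 6 pathway genes outside the 10 members and the transcription factor list that passed the threshold, with MOZ WT in blue (n = 5), MOZ KO in red (n = 3) and the mean and SD in black. Etv1 and Gpc4 are higher and the other 4 lower in MOZ KO, with no overlap between the groups in any panel.

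Among 11 tested transcription factors that act on Fgf8 or Fgf10 or in the same progenitors, 2 fell and 0 rose (7 at an unadjusted p under 0.05), and DESeq2 and limma called 3 and 1 lower and 0 higher. The 2 are 18.2% of those tested, beside 2.67% of all genes tested. An unadjusted p under 0.05 was found for 2148 of all 15086 genes tested. Foxc1, a forkhead factor of the pharyngeal mesoderm, fell from 33.0 ± 4.86 to 21.2 ± 1.71 CPM, by 0.63 ± 0.11 (SE) on the log2 scale (edgeR adjusted p = 0.00304). Hand2, a factor of the second heart field and right ventricle, fell from 147.6 ± 9.82 to 126.6 ± 8.61 CPM, by 0.22 ± 0.06 (SE; edgeR adjusted p = 0.0446). The Hand2 call was lost on leaving out any 1 of MOZ WT replicates 2, 4 and 5 or MOZ KO replicates 1, 2 and 3 (edgeR adjusted p of 0.0664 to 0.208), and without both hearts with Xist RNA (0.146). Its count could include reads of Hand2os1, which shares 461 exon bases on the opposite strand. Tbx1 was under the count filter.

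The genes whose log2 CPM followed Fgf10 most closely over the 8 hearts were Hjv (Pearson r = 0.988), Tinagl1 (0.973), Pole4 (0.972), Oat (0.972) and Dusp10 (0.964), out of 12018 genes compared. Such a ranking is a description: the 8 points share the step between the genotypes, and many genes were searched. Hjv, the gene of the BMP co-receptor hemojuvelin, rose from 21.2 ± 1.34 to 30.9 ± 1.07 CPM (log2 fold change 0.55 ± 0.08, SE; edgeR adjusted p = 0.000293). Tinagl1, Oat and Dusp10 also passed, with log2 fold changes of 0.31, 0.21 and 0.33 (edgeR adjusted p = 0.00816, 0.0107 and 0.0343). Pole4 did not (0.13 ± 0.06, SE; edgeR adjusted p = 0.275). Dusp10 encodes a phosphatase of the stress kinases p38 and JNK and is in none of the FGF lists. The call of Tinagl1 was lost without MOZ KO replicate 1 (edgeR adjusted p = 0.0533) or without the hearts with Xist RNA (0.0555), and that of Oat without MOZ KO replicate 1 or 2 (up to 0.0767). That of Dusp10 was lost on leaving out any 1 of MOZ WT replicates 3, 4 and 5 or MOZ KO replicates 1, 2 and 3 (edgeR adjusted p up to 0.139), and without the hearts with Xist RNA (0.121). With the replicate block, Tinagl1, Oat and Dusp10 lost their calls too (edgeR adjusted p = 0.106, 0.1155 and 0.210). Dusp10 also lost its call with the Xist covariate (edgeR adjusted p = 0.102).

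The pathway genes and transcription factors that passed differed in how they held under other settings. The 18 alternatives are not all separate, since the replicate block and the Xist settings bear largely on the same MOZ WT hearts. Over the 18 alternatives, the call held in 18 for Fgf10, Il17rd, Gpc4 and Foxc1, in 17 for Sdc1, in 16 for Dusp4, in 13 for Etv1, in 9 for Gpc3, in 7 for Spry4 and in 6 for Hand2.

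**Figure D5:**
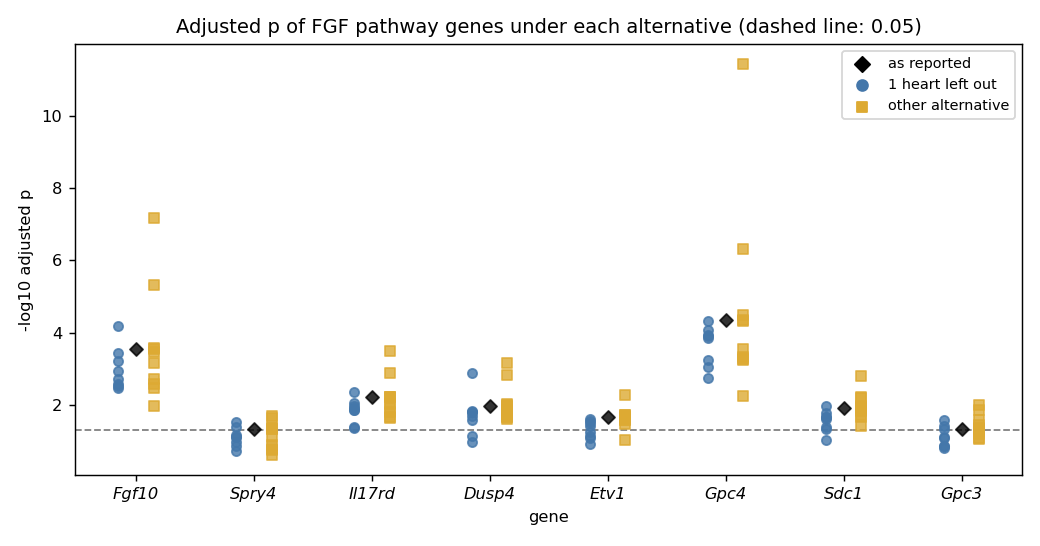
Adjusted p on a -log10 scale (vertical axis) of 8 pathway genes as reported (black), with 1 heart left out (blue) and under the other alternatives (yellow); the dashed line is 0.05. Points of Fgf10, Il17rd and Gpc4 all lie above the line, while most points of Spry4 lie below it.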

How the data were processed

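RNA of 8 embryonic heart samples was sequenced from TruSeq stranded libraries, per the labels' protocols. Reads were demultiplexed with bcl2fastq and counted with featureCounts on mm10, per the submitters' processing notes. The sources used here do not give the aligner, the versions, the annotation release or the use of strand. The authors deposited unnormalised counts for each Entrez gene, beside each gene's length in bases. All 8 single-sample files were identical to the table used. Entrez IDs were matched to symbols in the RefSeq table of GRCm38.p6 (25275 of 27179).

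Groups follow the genotype in the sample titles. Counts were filtered with filterByExpr (15086 genes kept), scaled by TMM and tested with edgeR's quasi-likelihood test (edgeR 4.0.16, R 4.3.3; robust, no covariate) over all genes, MOZ KO against MOZ WT. SE is the absolute log2 fold change over the root of F, and 95% intervals use the t distribution. Log2 CPM for values by heart used a prior count of 2. The coefficient of variation between hearts, 9.10%, limits the precision of abundant genes. Low genes such as Fgf8 also carry counting error. Alternatives used DESeq2 1.42.0, limma 3.58.1 (voom, quality weights), 2 other scalings, 2 other filters, a fit without robust moderation, the replicate number as a block, Xist as a covariate, no hearts with Xist RNA, and each heart left out. Exon overlaps of 32 named genes were searched in GENCODE M21. The test was checked on simulated counts.

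The members, the gene lists and the rules were chosen with earlier results of these data known. Named are the 10 members, Kat6a, every gene of a pathway list past the threshold or else its 2 genes of smallest p, and the 5 genes most like Fgf10; Etv4, Etv5 and Isl1, besides, and Nkx2-6, Tlx1, Msx1, Twist1 and Npr3, marker genes that fell, were named after their values were seen. One relay gene that the rule names is not reported here.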

Additional observations from a re-analysis of the deposited data

Results flagged for a closer look

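In 3 of 32 genes checked, 1 MOZ WT heart stood apart from the other 4, by a gap of more than 0.71 of the whole range, the 95% limit of Dixon's test for 5 samples; chance gives about 1 such group in 20. Gpc3 stood at 632 CPM in MOZ WT replicate 2 and at 508 to 540 CPM in the others. Tinagl1 stood at 55.5 CPM in MOZ WT replicate 1 and at 46.8 to 47.4 CPM in the others, and Pole4 at 51.0 CPM in the same heart and at 47.6 to 48.5 CPM in the others. Both genes were checked because they followed Fgf10, which is itself highest among the MOZ WT hearts in replicate 1. A high value there is partly built in by that choice, so the rate of 1 in 20 does not apply to them. None of the 10 FGF members met this rule, Fgf8 included.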

How the results depend on the processing

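The count of all changed genes, 403, was 181 with the replicate block and 194 to 496 on leaving out single hearts, with 194 without MOZ KO replicate 1 and 263 without MOZ KO replicate 3. The count of members past the threshold, 2, was 1 with limma voom, without robust moderation, with the replicate block, with the Xist covariate and without the hearts with Xist RNA, and 1 to 2 on leaving out single hearts; Fgf10 passed in each. The count over the other lists, transcription factors included, was 8. It was 5 with the replicate block and 3 to 9 on leaving out single hearts. It was 3 without MOZ KO replicate 1 and 5 without MOZ KO replicate 2 or 3. The log2 fold change of Spry4 did not pass with limma voom (-0.34, adjusted p = 0.127), without robust moderation (-0.39, edgeR adjusted p = 0.0769), with the replicate block (-0.33, 0.250), with the Xist covariate (-0.33, 0.168) or without the hearts with Xist RNA (-0.34, 0.181), and ranged from -0.47 to -0.34 on leaving out single hearts. The replicate block and the Xist settings bear largely on the same MOZ WT hearts, so these losses are not separate. Fgf10 kept its call throughout. Small values turned sign on leaving out 1 heart, none past the threshold: Fgf8 ranged from -0.0447 (without MOZ KO replicate 3) to 0.671, Fgfr2 from -0.0071 (without MOZ KO replicate 3) to 0.0806, Spry1 from -0.215 to 0.0202 (without MOZ WT replicate 2), and Dusp6 from -0.0786 to 0.0064 (without MOZ KO replicate 2; 0.0046 without MOZ WT replicate 2). The cause was not tested. Of 556 values of named genes under the alternatives, 496 kept their direction and their side of the threshold, 55 lost a call and 0 gained one. Nothing in the labels says that the replicate numbers pair the hearts, so the block is a check only. Same-numbered hearts deviated from their group means with correlations of 0.07, -0.12 and -0.05 over the genes tested. These values show no pairing, but from so few hearts they cannot exclude a shared litter or batch. Reads per heart limit Fgf8, Fgf7 and Fgf16 most.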
